A study of Mus musculus with 42 samples.

Results

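The genes described here are 9 members of the Hedgehog pathway, namely *Shh*, *Scube2*, *Ptch1*, *Boc*, *Smo*, *Hhip*, *Gli1*, *Gli2* and *Gli3*. They were found among the 56953 genes of the count table by matching its Ensembl identifiers to GENCODE symbols, and each of the 9 had a row. Heart fields of 21 mouse embryos at stage E8.5i were sequenced separately for the left and the right, which gives 42 libraries. Of these embryos, 5 were Ccdc40+/+ wild types, 11 were Ccdc40lnks/lnks mutants with rightward heart looping (rightward mutants) and 5 were Ccdc40lnks/lnks mutants with inverted looping (inverted mutants), all from the same line on a C57BL/6J background. The lnks allele is a nonsense point mutation induced by ENU, and *Ccdc40* encodes a part of the molecular ruler on which the motors of beating cilia are placed. Each sample is the left or right part of a tissue block that was dissected free of the heart tube, the head and the back, where most of the neural tube lies, and divided by a cut between the sides, so that a cut that is off centre would place midline tissue on 1 side. The tissue is described as mainly heart field, and it reaches to the second somite. The study sorted the rightward mutants by expression into situs solitus and heterotaxy, which the labels do not tell apart, so that their values here are over both phenotypes.

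Hedgehog ligands are secreted proteins that bind the receptor PTCH1 and thereby release SMO, a membrane protein that acts in the primary cilium. SMO in turn changes the GLI transcription factors, of which GLI1 is an activator and GLI3 is best known as a repressor. *Ptch1*, *Hhip* and *Gli1* are transcribed in responding cells, so that their transcripts are a common readout of the pathway. In the embryo, SHH is made by the notochord, the floor plate of the neural tube and the foregut endoderm, from which it reaches the progenitors of the heart. It also acts in the node, where left and right are first distinguished.

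The inverted mutants had 1 asymmetric gene among the 9 members, *Scube2*, which was higher on the left in 5 of 5 embryos, where 2.04% of all 22960 genes passed. The call was lost without any 1 of 4 of these 5 embryos, and neural tube markers moved with it. *Boc* was also higher on the left in 5 of 5 of these embryos, without passing the threshold. None of the 9 passed in the wild types or in the rightward mutants, and no difference of asymmetry or of level between groups passed for any member. *Shh* differed between both sides of an embryo by up to 4.11-fold (from CPM with a prior count of 2), with the left higher in 12 and the right in 9 of the 21 embryos.

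Between 36073684 and 62970327 counts were obtained per library (median 43458644). All 9 members passed the filter on low counts in every comparison. *Scube2* was the least counted, between 11 and 1524 counts per library, so that its lowest values rest on few reads. The level of *Ccdc40*, which checks the genotype labels, was 15.2 to 26.5 CPM in wild types and 8.83 to 14.8 CPM in mutants, without overlap. CPM relate the count of a gene to the effective (TMM) size of its library. Of the defining genes of the heart field, *Isl1* had between 2270 and 7388 counts in the 42 libraries. Genes of heart muscle, which the dissection should largely remove, were also present, with 1494 to 26701 counts of *Tnnt2*. The wild type 10_1 stood apart from the other embryos on the right, where the summed level of 8 neural tube markers was 356 CPM and that of the other 4 wild types was at most 87.9 CPM. In bulk samples of this kind, fewer cells of a type and less RNA per cell cannot be told apart.

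Levels between genes can be compared per length, as CPM per kilobase of all annotated exons. By their medians over 42 libraries the order was *Ptch1* (9.45 CPM per kilobase), *Gli2* (9.19), *Gli3* (8.36), *Smo* (6.13), *Boc* (4.44), *Gli1* (3.09), *Shh* (2.41), *Hhip* (1.58) and *Scube2* (0.318). The first 2 could not be ordered, since *Ptch1* was above *Gli2* in 20 of 42 libraries. *Gli2* was above *Gli3* in 33 libraries, and *Gli3* above *Smo* in 41. *Gli1* was above *Shh* in 29 and *Shh* above *Hhip* in 31. *Scube2* was the lowest of the members by median, although its highest library was 137 times its lowest. That ratio was 10.8 for *Shh* and 1.54 for *Gli2*, the steadiest member.

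**Figure D1:**
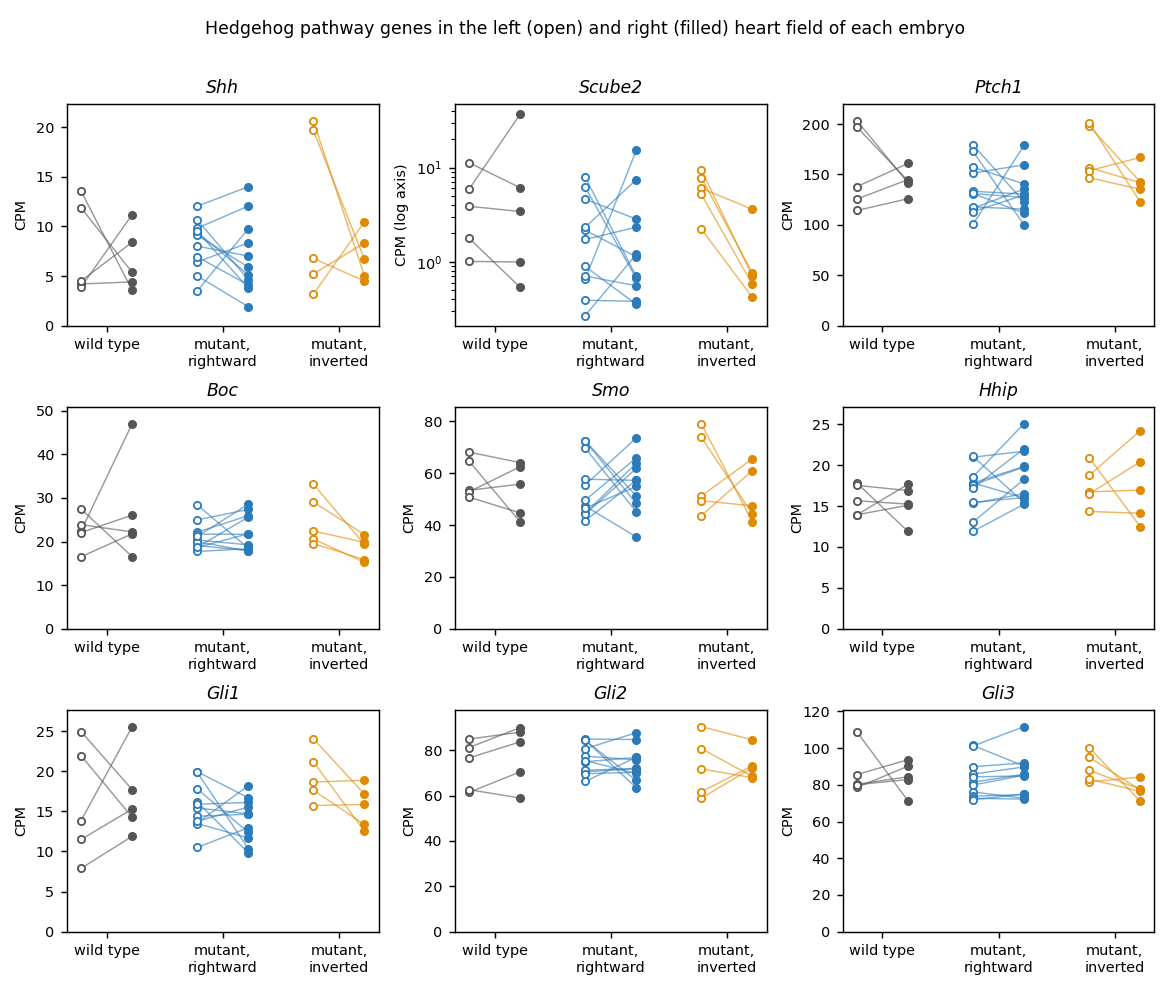
CPM of the 9 members in the left (open circles) and right (filled circles) heart field, with a line joining both sides of an embryo; the vertical axis of *Scube2* is logarithmic and the others start at 0. In the inverted mutants (n = 5), each line of *Scube2* and of *Boc* descends from left to right, whereas the lines of *Shh* go in both directions in every group.

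The sequences before the start of *Scube2*, the member with a called asymmetry, and of *Ptch1*, a target gene and common readout of Hedgehog signaling, are shown for context. They are the 250 bases before the start in RefSeq on GRCm38.p6, an older build than the GRCm39 of all other positions given here, at chr7:109865680-109865929 and chr13:63565736-63565985, both on the minus strand. The RefSeq table used here held 6 of the 9 members, without *Shh*, *Gli1* and *Boc*. Capitals mark GC boxes (GGGCGG on either strand).
Scube2: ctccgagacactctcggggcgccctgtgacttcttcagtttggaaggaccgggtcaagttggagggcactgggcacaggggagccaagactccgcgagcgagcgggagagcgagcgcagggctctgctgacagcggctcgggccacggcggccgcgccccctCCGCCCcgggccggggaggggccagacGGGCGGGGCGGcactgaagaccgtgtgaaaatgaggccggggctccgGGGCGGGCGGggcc
Ptch1: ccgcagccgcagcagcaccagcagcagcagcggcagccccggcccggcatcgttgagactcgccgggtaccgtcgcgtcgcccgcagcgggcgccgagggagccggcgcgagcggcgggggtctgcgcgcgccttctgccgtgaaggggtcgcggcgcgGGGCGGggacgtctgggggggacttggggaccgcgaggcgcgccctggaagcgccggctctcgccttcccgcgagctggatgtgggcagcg
The *Scube2* window held 5 GC boxes, some of them overlapping, and had 73.6% GC, whereas that of *Ptch1* held 1 and had 78.4% GC. A GC box was found in 32.7% of the 32851 windows of this length in the table. The consensus site of GLI proteins (GACCACCCA on either strand) was found in 0.225% of them and in 0 of the 6 members' windows, which says only that these letters are not in these 250 bases.

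*Shh* (ENSMUSG00000002633; chromosome 5 of GRCm39, 28661813 to 28672254), the ligand, was counted in all 42 libraries with 70 to 1140 counts. In the wild types the left sides had 4.21, 13.5, 3.91, 11.9 and 4.52 CPM in the embryos 10_1, 17_7, 22_4, 7_1 and 8_1, and the right sides 4.42, 3.56, 11.2, 5.37 and 8.42 CPM. Either side could be the higher one by more than 2 times the other, and the groups of left and right overlapped fully. The inverted mutants had 5.22, 3.18, 20.7, 6.78 and 19.7 CPM on the left of the embryos 10_3, 18_2, 2_7, 32_2 and 4_6, and on the right 8.34, 10.5, 4.99, 4.50 and 6.70 CPM. The left of 2_7 and 4_6 was the highest of all libraries. Among rightward mutants the left ranged from 3.51 to 12.0 CPM (median 9.11) and the right from 1.91 to 14.0 CPM (median 5.91), with the left higher in 7 of 11 embryos. Right over left, the log2 fold change of *Shh* was -0.12 in wild types (standard error, SE, 0.50), -0.36 in rightward mutants (SE 0.23) and -0.40 in inverted mutants (SE 0.53), with adjusted p of 1.00, 1.00 and 0.797. The value of the wild types ranged from -0.54 to 0.33 with 1 embryo left out, and so took both signs. In males alone, which leaves 3 inverted mutants, the log2 fold change of that group was 0.30 (adjusted p = 0.919). With 1 of the 5 inverted mutants left out it ranged from -0.91 without 18_2 to 0.0556 without 2_7, so that it has no settled sign. The median size of the log2 ratio over the 21 embryos was 0.89, against 0.31 over 26335 genes. *Shh* overlaps a gene on the other strand, 9530036O11Rik, and whether reads were counted by strand is not given in the sources used here, so that reads of both cannot be told apart.

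*Scube2* (ENSMUSG00000007279; chromosome 7, 109395631 to 109464906) encodes a secreted protein that helps to release the lipid-bearing ligand from the cells that make it. Left sides of the inverted mutants had 6.04, 5.21, 2.23, 9.49 and 7.84 CPM in the embryos 10_3, 18_2, 2_7, 32_2 and 4_6, and the right sides 3.61, 0.575, 0.421, 0.709 and 0.754 CPM. The left was higher in each of the 5 embryos, least in 10_3 and by up to 12.6-fold in 32_2 (with the prior count of 2). The right of 10_3 had more than the left of 2_7, so that the sides did not separate fully. The mean was 6.16 ± 2.75 (left) and 1.21 ± 1.34 CPM (right) (SD, n = 5). Right over left, the log2 fold change was -2.64 (SE 0.43, edgeR, Benjamini-Hochberg adjusted p = 0.0224), and without the embryo 10_3 it was -3.18 (adjusted p = 0.00365). The call was lost without 2_7, 4_6, 18_2 or 32_2, where the log2 fold change was between -2.70 and -2.36 and the adjusted p between 0.0567 and 0.100. It was also lost without the embryo as a block (adjusted p = 0.0725), with all groups fitted together (0.128) and in males alone (0.266, 3 embryos), and DESeq2 gave 4.1e-06. An exact sign-flip test over 5 embryos could not give a two-sided p below 0.0625.

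In wild types *Scube2* had 5.89, 3.88, 1.79, 11.3 and 1.01 CPM on the left of the embryos 10_1, 17_7, 22_4, 7_1 and 8_1, and 36.8, 3.42, 0.536, 6.11 and 0.996 CPM on their right. The left was higher in 4 of 5 embryos by CPM, and 10_1 went the other way with the highest level of all 42 libraries. The log2 fold change was -0.04 (SE 0.56), and without 10_1 it was -0.67. In rightward mutants the level was 0.269 to 7.93 CPM on the left (median 1.73) and 0.354 to 15.2 CPM on the right (median 1.13), and log2 ratios went from -3.42 in 1_6 to 4.44 in 19_6. Their log2 fold change was -0.18 (SE 0.64), and the left was higher in 7 of 11 embryos.

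Neural tube markers moved with *Scube2* in the inverted mutants. All 8 of the list (*Sox1*, *Sox2*, *Pax6*, *Pax3*, *Olig2*, *Nkx6-1*, *Hes5* and *Dbx1*) had a negative log2 fold change there, and 4 passed an adjusted p under 0.05, *Pax6* (-2.02, adjusted p = 0.0309), *Hes5* (-2.61, 0.0342), *Nkx6-1* (-1.45, 0.0424) and *Olig2* (-1.77, 0.0441). Their summed level ranged from 88.6 to 149 CPM on the left and from 14.7 to 90.5 CPM on the right. *Olig2* and *Dbx1* had a count of 0 in 12 of all 42 libraries each and *Sox1* in 6. In the opposite direction, 4 of 6 markers of heart tube muscle passed as higher on the right (*Actc1*, *Tnnt2*, *Myh6* and *Myl7*, with log2 fold changes of 0.88 to 1.12). *Myh7* had 1.45 (adjusted p = 0.0859 from edgeR) and *Nppa* -0.0642, and the sum of the 6 went from 1043 to 2067 CPM on the left and from 1944 to 4078 CPM on the right. Of 9 markers of the second heart field, 4 passed as higher on the right (*Tbx5*, *Osr1*, *Mef2c* and *Wnt2*, log2 fold changes of 0.59 to 0.74), and 5 did not pass (*Fgf8* 0.36, *Isl1* 0.27, *Fgf10* 0.12, *Hoxb1* -0.25 and *Tbx1* -0.39). In the wild types and in the rightward mutants, 0 of the markers tested from these 3 lists passed, and in the latter *Olig2* and *Dbx1* were too low to be tested. No marker of these 3 lists passed for the difference of asymmetry between the inverted mutants and either other group. Of the other tissues read in inverted mutants, 1 of 4 floor plate markers passed (*Ntn1*, -0.996, adjusted p = 0.0349) and 1 of 8 foregut endoderm markers (*Hhex*, 1.04, adjusted p = 0.0342), both with edgeR. The floor plate markers did not share a direction, since *Spon1* had 0.33 (edgeR, adjusted p = 0.0595), and their sum had a median of 174 CPM on the right and 137 CPM on the left. None passed among 7 markers of paraxial mesoderm (all 7 lower on the right, median log2 fold change -0.70), 5 of neural crest, 4 of blood, 4 of endothelium or 4 of yolk sac visceral endoderm (all 4 higher on the right, median 0.62). No marker tested from these 7 lists passed in the other 2 groups. For the difference of asymmetry, 1 marker each of paraxial mesoderm and endothelium passed between inverted mutants and wild types, and none between the mutant groups. The part of these tissues in the asymmetry of *Scube2* was not tested.

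Over all 21 embryos, the log2 ratio of *Scube2* followed that of the summed neural tube markers (Pearson's r = 0.90, permutation test p = 1e-05, Spearman's rho = 0.87, permutation p = 1e-05, both the smallest p that 100000 permutations can give). Over the 135 relations computed of this kind, the Benjamini-Hochberg adjusted p was 0.000338 for r and 0.00027 for rho. Without the 2 embryos farthest from the median r was 0.83, and within the 11 rightward mutants it was 0.87 (rho = 0.69). With the second heart field markers r was -0.74 (permutation p = 0.00019, adjusted 0.00321, rho = -0.85, p = 1e-05, adjusted 0.00027). Both ratios come from the same libraries and therefore share their composition. The 5 genes whose ratios were most like that of *Scube2* among 14894 genes were *Pax6* (r = 0.94), *Hoxd3*, *Fam181a*, *Miat* and *Adgrv1* (0.90 to 0.91), named after their values were seen.

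**Figure D2:**
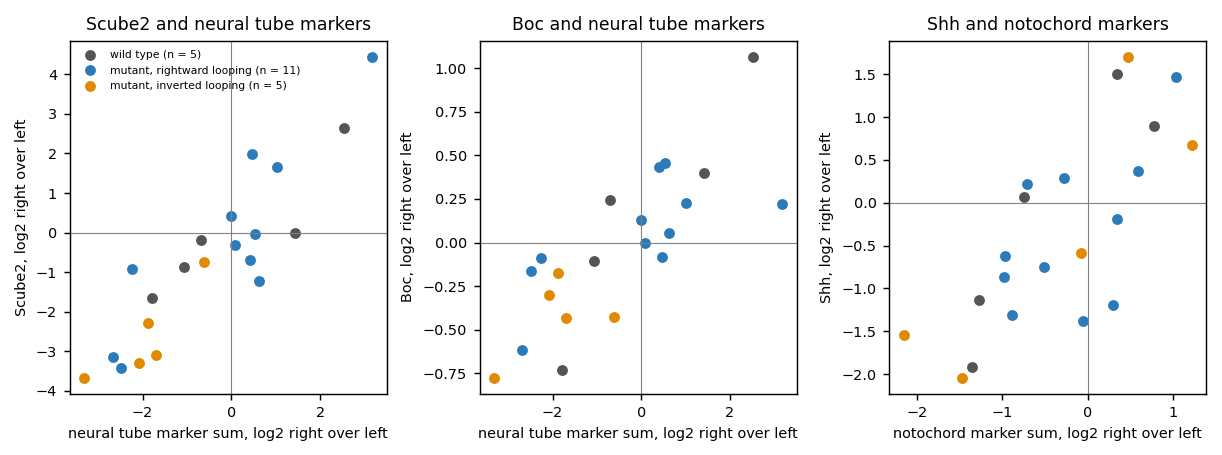
Log2 right over left ratio of *Scube2* and of *Boc* against that of 8 summed neural tube markers, and of *Shh* against that of 5 summed notochord markers; each point is 1 embryo (n = 21), coloured by group. The 5 inverted mutants all lie at negative values of *Scube2*, *Boc* and neural tube markers, and are spread over both sides for *Shh*.

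*Boc* (ENSMUSG00000022687; chromosome 16, 44305290 to 44379432) encodes a co-receptor that binds the ligand together with PTCH1. Its left sides in inverted mutants had 29.1, 20.6, 22.4, 33.1 and 19.5 CPM in the embryos 10_3, 18_2, 2_7, 32_2 and 4_6, and its right sides 21.6, 15.2, 19.8, 19.4 and 15.8 CPM. The left was higher in 5 of 5 embryos, by up to 1.71-fold. For this group the log2 fold change was -0.41 (SE 0.09, unadjusted p = 0.00209, adjusted p = 0.0720), and it passed with DESeq2 (adjusted p = 0.000573) and without a filter on low counts (0.0296). In wild types *Boc* had 22.5 ± 3.95 (left) and 26.7 ± 11.9 CPM (right) (SD, n = 5), where the right of 10_1 had 47.1 CPM and the other right sides at most 26.1 CPM. Rightward mutants had 21.2 ± 3.14 (left) and 22.1 ± 4.10 CPM (right) (SD, n = 11). The log2 fold changes of these groups were 0.17 (SE 0.22) and 0.05 (SE 0.08).

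Over the 21 embryos the ratio of *Boc* followed that of neural tube markers (r = 0.80, permutation p = 1e-05, adjusted 0.000338, rho = 0.80, p = 5e-05, adjusted 0.000844) and went against that of heart tube muscle (r = -0.88, permutation p = 1e-05, adjusted 0.000338, rho = -0.89, p = 1e-05, adjusted 0.00027). Without the 2 farthest embryos these r were 0.79 and -0.88, and within the rightward mutants 0.70 and -0.82 (n = 11). The ratio of *Boc* went against that of the second heart field as well (r = -0.87, permutation p = 1e-05, adjusted 0.000338, rho = -0.86, p = 1e-05, adjusted 0.00027). It went against foregut endoderm too (r = -0.78, permutation p = 6e-05, adjusted 0.00162) and endothelium (r = -0.64, adjusted 0.0134, but 0.31 within the rightward mutants). With paraxial mesoderm r was 0.56 (adjusted 0.0332) and with neural crest 0.54 (adjusted 0.0459). The part of tissue composition in the ratios of *Boc* was not tested.

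*Ptch1* (ENSMUSG00000021466; chromosome 13, 63656142 to 63721412), the receptor, had the highest median level per length, with *Gli2* close to it. Left sides of inverted mutants had 157, 154, 198, 147 and 201 CPM in the embryos 10_3, 18_2, 2_7, 32_2 and 4_6, and right sides 142, 167, 143, 135 and 123 CPM. The left was higher in 4 of 5 embryos, with 18_2 as the exception, and the log2 fold change was -0.26 (SE 0.11, unadjusted p = 0.0481, adjusted p = 0.324). With 1 embryo left out it ranged from -0.37 to -0.14. Wild types had 156 ± 41.6 (left) and 143 ± 12.4 CPM (right) (SD, n = 5), and rightward mutants 137 ± 25.4 and 132 ± 22.1 CPM (SD, n = 11). The log2 fold changes of these groups were -0.09 and -0.05.

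The left sides of 2_7 and 4_6, which had the most *Shh*, had 198 and 201 CPM of *Ptch1*. The right of the rightward mutant 1_6, with the third most *Shh* (14.0 CPM), had only 141 CPM of *Ptch1*, less than its left (157 CPM). Over the 21 embryos, the ratios of *Shh* and *Ptch1* were correlated (r = 0.68, permutation p = 0.00078, adjusted 0.00702, rho = 0.63, p = 0.00292, adjusted 0.0197). Without the 2 farthest embryos r was 0.67, and within the rightward mutants it was 0.59 (rho = 0.40, n = 11). *Ptch1* and *Gli1* were correlated as well (r = 0.63, permutation p = 0.00185, adjusted 0.0134, rho = 0.66, p = 0.00148, adjusted 0.0118), with r of 0.55 without the 2 farthest embryos and 0.75 within the rightward mutants. For *Shh* and *Gli1* r was 0.37 (permutation p = 0.0943, rho = 0.35, p = 0.122), which did not pass. *Hhip*, also named above as a readout, followed none of them. Its r was 0.08 with *Ptch1*, -0.04 with *Gli1* and 0.14 with *Shh* (permutation p = 0.729, 0.874 and 0.557). The ratio of *Ptch1* was correlated with that of *Scube2* too (r = 0.65, permutation p = 0.00164, adjusted 0.0130, rho = 0.59, p = 0.00586, adjusted 0.0280).

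The ratio of *Shh* also followed that of 5 summed notochord markers (r = 0.75, permutation p = 1e-04, adjusted 0.00193, rho = 0.79, p = 5e-05, adjusted 0.000844). Without the 2 farthest embryos r was 0.74, and within the rightward mutants it was 0.56 (rho = 0.47, n = 11). *Noto*, which defines the notochord, was at 0 in 17 of 42 libraries, whereas *T* had 21 to 1560 counts. The notochord sum was highest on the left of 4_6 (71.6 CPM) and 2_7 (53.0 CPM), the same sides that had the most *Shh*. None of the notochord markers that were tested passed for right against left in any group, and *Noto* could be tested only in the inverted mutants. *Foxa2* is in the notochord, floor plate and foregut endoderm lists and made up 27.9% to 78.0% of the notochord sum (median 53.5%). Without it, in an alternative chosen after seeing the data, r of *Shh* and the notochord sum was 0.71 (permutation p = 0.00022, not adjusted, rho = 0.71, p = 0.00042). With 4 summed floor plate markers the ratio of *Shh* had r = 0.57 (permutation p = 0.00812, adjusted 0.0332, rho = 0.50, p = 0.0236, adjusted 0.0802), but r was 0.34 without the 2 farthest embryos, so that this relation rests on them, and 0.43 without *Foxa2* (permutation p = 0.0518, not adjusted, rho = 0.34, p = 0.133). With 8 foregut endoderm markers r was 0.19 (permutation p = 0.413, rho = 0.29, p = 0.204). Other tissues moved with *Shh* too, with r = 0.65 for 4 blood markers (permutation p = 0.00164, adjusted 0.0130, rho = 0.66, p = 0.00145, adjusted 0.0118, and r = 0.60 without the 2 farthest embryos). For 5 neural crest markers r was -0.57 (permutation p = 0.00686, adjusted 0.0319, rho = -0.52, p = 0.0169, adjusted 0.0634).

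The ratio of *Ptch1* was correlated with the notochord markers (r = 0.71, permutation p = 0.00024, adjusted 0.0036, rho = 0.67, p = 0.0013, adjusted 0.0117) and as much with the neural tube markers (r = 0.71, permutation p = 0.00032, adjusted 0.00393, rho = 0.71, p = 0.00047, adjusted 0.00529). Without *Foxa2* r with the notochord sum was 0.77 (permutation p = 6e-05, not adjusted, rho = 0.75, p = 0.00017). Without the 2 farthest embryos r of the full lists was 0.74 and 0.57, and within the rightward mutants 0.71 and 0.88 (n = 11). With the second heart field markers it was -0.57 (permutation p = 0.00755, adjusted 0.0329, rho = -0.62, p = 0.00388, adjusted 0.0223). The part of the share of midline or other tissue in the ratios of *Shh* and *Ptch1* was not tested.

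*Smo* (ENSMUSG00000001761; chromosome 6, 29735407 to 29762532), the signal transducer, ranged from 35.5 to 79.2 CPM. Its ratio had a median size of 0.42 on the log2 scale, with the right higher in 10 and the left in 11 of 21 embryos. In the inverted mutants the left had 59.5 ± 16.0 CPM and the right 51.9 ± 10.7 CPM (SD, n = 5), and the log2 fold change was -0.17 (SE 0.21, adjusted p = 0.785). It was -0.13 in wild types and 0.03 in rightward mutants. *Hhip* (ENSMUSG00000064325; chromosome 8, 80692480 to 80784658), which encodes a membrane protein that binds the ligand and limits its range, had 11.9 to 25.1 CPM. In rightward mutants it was higher on the right in 9 of 11 embryos, and the log2 fold change was 0.14 (SE 0.08, unadjusted p = 0.0950, adjusted p = 1.00). In wild types and in inverted mutants the value was -0.05 and 0.00.

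*Gli1* (ENSMUSG00000025407; chromosome 10, 127165751 to 127177865), the activator, had 15.7, 21.2, 18.7, 17.6 and 24.1 CPM on the left of the inverted mutants 10_3, 18_2, 2_7, 32_2 and 4_6, and 15.9, 12.5, 18.9, 13.4 and 17.1 CPM on their right. Both sides were nearly level in 10_3 and 2_7, and the left was higher in the other 3. For this group the log2 fold change was -0.31 (SE 0.13, unadjusted p = 0.0398, adjusted p = 0.298). It was 0.14 (SE 0.24) in wild types and -0.16 (SE 0.11) in rightward mutants. With 1 embryo left out, the value of the wild types ranged from -0.04 to 0.34. Over the 21 embryos the ratio of *Gli1* was correlated with paraxial mesoderm markers (r = 0.69, permutation p = 0.00069, adjusted 0.00665). It also followed neural tube markers (r = 0.62, adjusted 0.0181) and went against heart tube muscle (r = -0.62, adjusted 0.0181). The part of tissue composition in the ratios of *Gli1* was not tested. The gene overlaps *Arhgap9* on the other strand, and reads of both cannot be told apart without strand.

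*Gli2* (ENSMUSG00000048402; chromosome 1, 118761858 to 118982598), the main activator at the start of signaling, was close to level. Its log2 fold changes were 0.08, -0.05 and 0.03 in wild types, rightward mutants and inverted mutants, with SE of 0.06, 0.05 and 0.08. *Gli3* (ENSMUSG00000021318; chromosome 13, 15637809 to 15904611) varied as little, with a median ratio of 0.07 in size and a largest of 0.61 in 22_4. Inverted mutants had 87.8, 95.0, 81.6, 100.2 and 83.2 CPM on the left of the embryos 10_3, 18_2, 2_7, 32_2 and 4_6, and on the right 77.7, 77.2, 84.2, 71.0 and 76.4 CPM. The left was higher in 4 of 5 embryos, with 2_7 as the exception. The log2 fold change was -0.20 (SE 0.07, unadjusted p = 0.0258, adjusted p = 0.243), and DESeq2 gave an adjusted p of 0.0345, the only 1 of 12 alternatives to pass. With 1 embryo left out the log2 fold change ranged from -0.27 to -0.13. In wild types it was -0.04, where 22_4 had a log2 ratio of -0.61 and the other 4 were between 0.05 and 0.20, and without 22_4 it was 0.11. In rightward mutants it was 0.02 (SE 0.03). The ratios of *Gli3* and *Boc* were correlated over 21 embryos (r = 0.73, permutation p = 1e-04, adjusted 0.00193, rho = 0.71, p = 0.00034, adjusted 0.00459, and r = 0.65 without the 2 farthest embryos), but r was 0.12 within the rightward mutants (n = 11), so that the relation does not hold in the largest group. Markers moved with *Gli3* too, with r = -0.72 for floor plate (permutation p = 0.00028, adjusted 0.00378) and 0.69 for neural crest (permutation p = 0.00053, adjusted 0.00596). For heart tube muscle r was -0.64 (permutation p = 0.00306, adjusted 0.0181). The part of tissue composition in the ratios of *Gli3* was not tested.

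**Figure D3:**
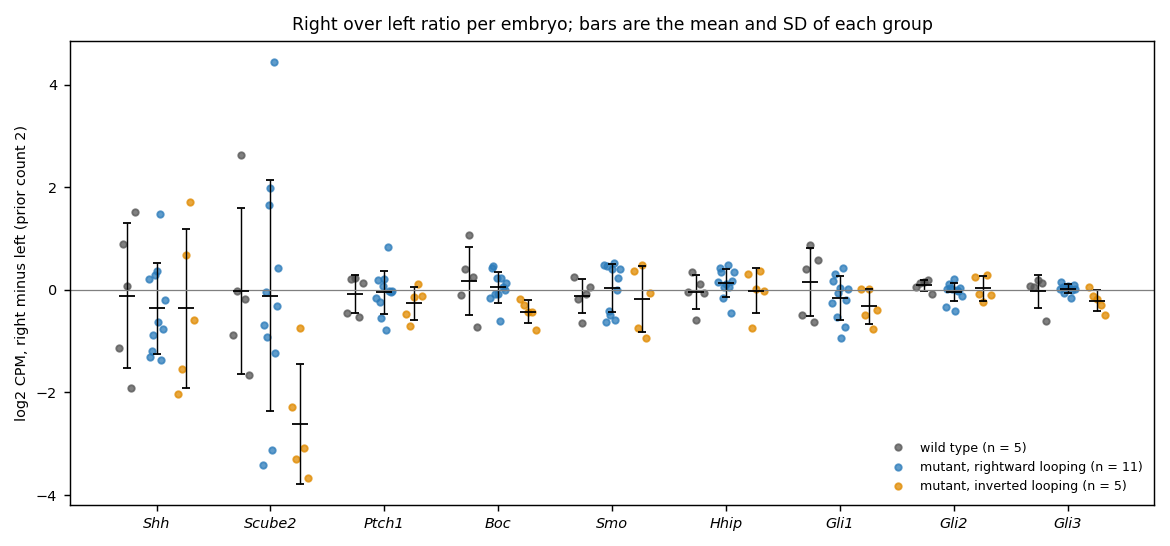
Log2 right over left ratio of CPM (prior count of 2) of each member in each embryo, with the mean and SD of each group as black bars; the axis is in log2 units and 0 means that both sides are level. *Scube2* and *Boc* of the inverted mutants (n = 5) lie wholly under 0, *Shh* and *Scube2* have the widest spread, and *Gli2* and *Gli3* have the narrowest, between -0.61 and 0.30.

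Right was compared with left in each group to ask which genes are asymmetric. In the wild types, edgeR called 0 of the 9 members at an adjusted p under 0.05, against 0% of 23182 genes, and DESeq2 called 0 members and 20 genes in all. At an unadjusted p under 0.05 there were 0 members, against 2.76% of all genes. In the rightward mutants, 0 of 9 passed, against 0.0263% of 22795 genes, with 0 by DESeq2 (32 genes in all) and 0 at an unadjusted p under 0.05 (3.59% of genes). The median log2 fold change of the members was -0.04 in wild types and -0.05 in rightward mutants, beside 0.00 over all genes.

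Among inverted mutants, 1 of 9 members passed, against 2.04% of 22960 genes. Most of these genes were higher on the right, and 0.318% of all genes passed and were lower there, as *Scube2* was. At an unadjusted p under 0.05 there were 5 of 9 members (*Scube2*, *Boc*, *Gli3*, *Gli1* and *Ptch1*), against 15.1% of genes. All 5 were lower on the right, as were 5.81% of all genes at that p. DESeq2 called 3 members (*Scube2*, *Boc* and *Gli3*) and 1755 genes in all. The median log2 fold change was -0.26 over the members and -0.01 over all genes, and 8 of the 9 had a negative value. These counts describe a short list whose members share libraries, and some of which correlate with each other.

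Whether an asymmetry differed between groups was tested as the interaction of side and group, with the 42 libraries fitted together. Each pair of these comparisons shares the libraries of 1 group. Between the inverted and rightward mutants, 0 of 9 members passed with edgeR, against 0.311% of 26335 genes (82), and DESeq2 called 0 members and 456 genes in all. There were 3 at an unadjusted p under 0.05 (10.5% of genes), *Scube2* (difference of log2 fold changes -2.47, SE 0.99, adjusted p = 0.358), *Boc* (-0.48, SE 0.20, adjusted p = 0.387) and *Gli3* (-0.23, SE 0.10, adjusted p = 0.398). Between the inverted mutants and the wild types, 0 passed (0.513% of genes, or 135), and DESeq2 called 0 members and 911 genes in all. There were 2 members at an unadjusted p under 0.05 (13.6% of genes), *Scube2* (-2.62, SE 1.12, adjusted p = 0.302) and *Boc* (-0.60, SE 0.23, adjusted p = 0.253). Without the wild type 22_4, *Boc* (-0.81, adjusted p = 0.0364) and *Gli3* (-0.31, adjusted p = 0.0484) passed. Between the rightward mutants and the wild types, 0 passed (0% of genes), DESeq2 called 0 members and 0 genes in all, and 0 had an unadjusted p under 0.05 (3.03% of genes). The left-sided *Scube2* of the inverted mutants was thus not shown to differ from the asymmetry of the other groups.

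Levels were compared on each side with sex in the model, to ask whether groups differ apart from asymmetry. Comparisons on 1 side share the rightward mutants. On the left, 0 of 9 members differed between inverted and rightward mutants (0.0121% of 24838 genes), and DESeq2 called 0 members and 104 genes in all. *Ptch1* had an unadjusted p of 0.0322 there, as 7.89% of genes were under 0.05, with a log2 difference of 0.32 (SE 0.14, adjusted p = 0.590). *Scube2* had a difference of 1.31 (SE 0.64, unadjusted p = 0.0546, adjusted p = 0.641). On the right, 0 of 9 passed (0.00805% of 24859 genes), 0 with DESeq2 (18 genes in all) and 0 at an unadjusted p under 0.05 (4.26% of genes). Between rightward mutants and wild types, 0 of 9 passed on the left (0.0242% of genes) and 0 on the right (0.0121%), and DESeq2 called 0 members on either side, with 20 genes in all on the left and 6 on the right. No member had an unadjusted p under 0.05 in either, against 5.02% and 3.28% of genes. *Scube2* had a log2 difference of -1.44 on the right (SE 1.04), which was 0.24 without the wild type 10_1. *Hhip* had 0.29 on the right (SE 0.15, unadjusted p = 0.0695).

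Of 28 other genes of the pathway, all were tested in every comparison. Among inverted mutants 1 passed, *Nkx6-1*, a homeobox gene that Hedgehog signaling turns on in the ventral neural tube. Its left sides had 10.7 to 35.8 CPM and its right sides 2.88 to 11.7 CPM, and the left was higher in 5 of 5 embryos (log2 fold change -1.45, SE 0.28, adjusted p = 0.0424). It is also one of the neural tube markers above. *Evc*, which encodes a ciliary protein that relays the signal of SMO, had 32.8 ± 2.46 (left) and 26.7 ± 2.73 CPM (right) (SD, n = 5), with a log2 fold change of -0.29 (adjusted p = 0.0610 from edgeR and 0.00119 from DESeq2). *Ccnd1*, a cyclin gene, had 300.2 ± 53.5 and 250.4 ± 34.2 CPM (SD, n = 5), with a log2 fold change of -0.24 (adjusted p = 0.102 from edgeR and 0.000569 from DESeq2). Both were higher on the left in 5 of 5 embryos. DESeq2 called 3 of the 28 (these 2 and *Nkx6-1*), beside 1755 of 22960 genes in all. At an unadjusted p under 0.05 there were 4 of the 28, all lower on the right, against 15.1% of genes in either direction and 5.81% lower on the right. The median log2 fold change of the 28 was -0.04, beside -0.26 for the 9 members.

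In the other comparisons, 0 of the 28 passed with either tool. At an unadjusted p under 0.05 there was 1 of the 28 in wild types (*Lrp2*, a receptor that takes up the ligand, log2 fold change of -0.39), against 2.76% of all genes, and 1 in rightward mutants (*Evc2*, -0.13), against 3.59%. For the difference of asymmetry there were 3 between inverted and rightward mutants (10.5% of genes), 2 between inverted mutants and wild types (*Lrp2* at 0.55 and *Ccnd1* at -0.38; 13.6% of genes) and 0 between rightward mutants and wild types (3.03%). For levels between the mutants there were 1 on the left (*Evc* at 0.21, with 7.89% of genes) and 2 on the right (*Foxf2* at 0.59 and *Gas1* at -0.31, with 4.26%). Between rightward mutants and wild types there were 1 on the left (*Lrp2* at -0.32, with 5.02%) and 1 on the right (*Kif7* at 0.21, with 3.28%). With 28 genes in the list, these counts lie near the shares over all genes and are no result about the list. Among the ligands, *Ihh* and *Dhh* were low, with medians of 0.290 and 0.0807 CPM per kilobase over 42 libraries, beside 2.41 for *Shh*. Of the other receptors, *Gas1* had 9.11 and *Cdon* 1.20 CPM per kilobase.

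**Figure D4:**
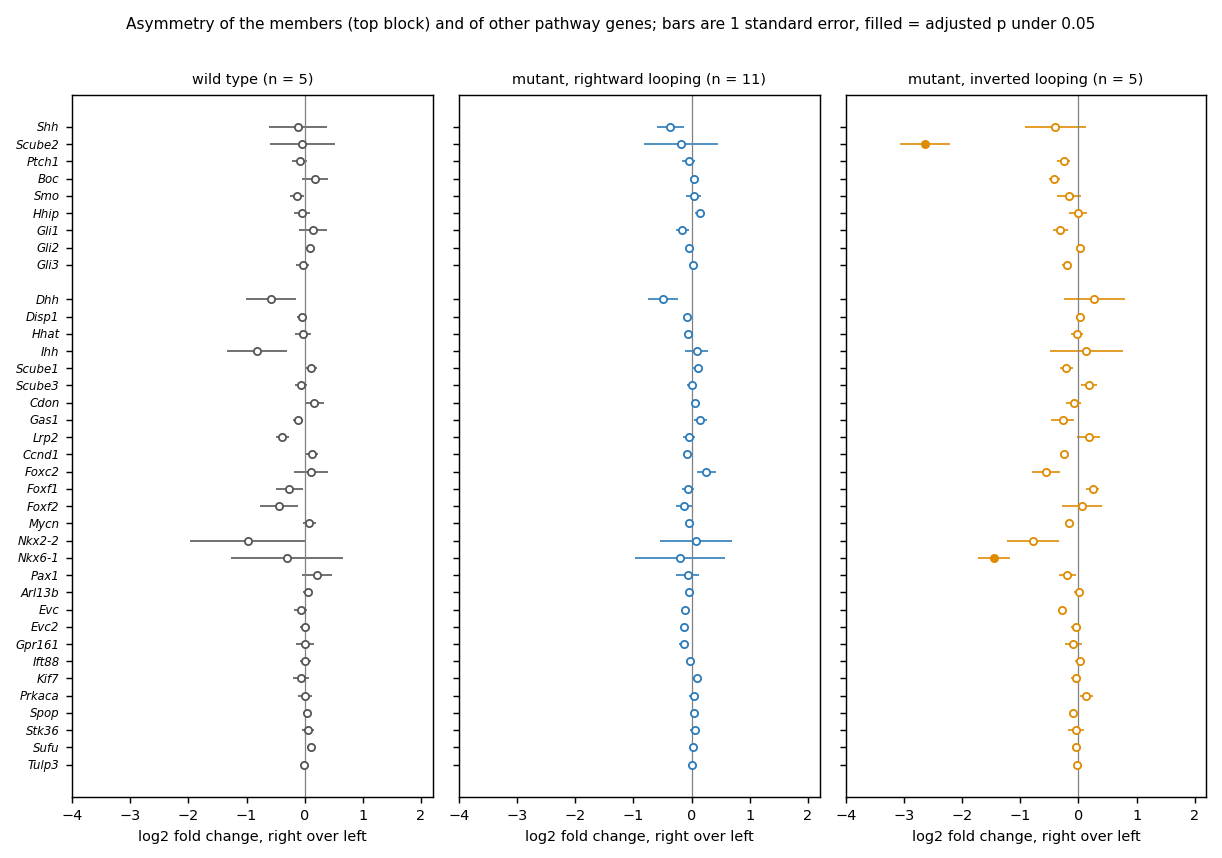
Log2 fold change of right over left from edgeR, with bars of 1 SE, for the 9 members (upper block) and 28 other pathway genes (lower block) in the 3 groups; filled points passed an adjusted p under 0.05. *Scube2* (-2.64) and *Nkx6-1* (-1.45) of the inverted mutants are the 2 filled points.

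The genes whose ratios over 21 embryos were most like those of *Shh* and *Gli1* were taken from 14894 genes with a mean of at least 50 counts. For *Shh* these were *Krt19* (r = 0.76), *Add2* (0.75), *Adgrg1* (0.75), *Redrum* (0.75) and *Samd3* (0.74). For *Gli1* they were *Dusp23* (0.83), *Rab34* (0.83), *Cpn1* (0.82), *Uimc1* (0.80) and *Foxj1* (0.79). For *Boc*, named after their values were seen, they were *Ptn* (0.94), *Chlsn* (0.94), *Ftsj3* (0.93), *Ebna1bp2* (0.93) and *Dclk1* (0.93). These are descriptions, chosen as the highest of many correlations.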

How the data were processed

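Paired left and right heart fields of 21 embryos were sequenced as bulk RNA (42 libraries). The authors trimmed adapters, removed duplicates, mapped the reads with STAR (GRCm39) and counted genes with featureCounts (Subread 2.0.6). They deposited raw counts per Ensembl gene, as whole numbers without normalization. The strand setting is not given in the sources used here. By position, every member except *Scube2* overlaps another annotated gene. Names and positions came from GENCODE M39. Groups follow the labels (genotype and direction of looping). The laterality clusters of the study are not in the labels and were not used here, so that the rightward mutants hold situs solitus and heterotaxy together.

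Genes were kept by filterByExpr (large.n 50, min.prop 0.2, min.total.count 10 and min.count 5) and tested with edgeR 4.0.16 (TMM, quasi-likelihood test, Benjamini-Hochberg over all genes tested) in R 4.3.3, with a threshold of 0.05. The standard error (SE) is the size of the log2 fold change divided by the square root of F. Embryo was the blocking factor in tests of side, since the labels pair the sides of 1 animal. Over 2000 variable genes, deviations of both sides had a median correlation of 0.311 (lowest -0.0849), and 13 of 21 pairs correlated best with each other. Levels were tested with sex as a covariate. The tests were also run on simulated counts that had no effect of embryo, so that this run does not check the pairing. No result here rests on it. Log2 ratios per embryo used CPM with a prior count of 2, and their correlations were tested with 100000 permutations, two-sided. P-values measure the spread between embryos, whose litters are not given. No library was a copy of another (lowest chi-square per gene 7.57 over 861 pairs).

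Alternatives were DESeq2 1.42.0 with a local fit, no block, no filter, other size factors, library size alone, all groups fitted together, males alone, no sex term, a prior count of 0.5 and each embryo left out. The males are 4 wild types, 6 rightward mutants and 3 inverted mutants. Named genes are the 9 members, those of 28 other pathway genes (1 more in the list is not reported here) that passed or had the lowest p (up to 5 per comparison), the 5 genes most like *Shh* and *Gli1* in their ratios, and *Ccdc40*. Besides the lists described, markers of floor plate, foregut endoderm, paraxial mesoderm, neural crest, blood, endothelium and yolk sac visceral endoderm were read. Members and lists were chosen with earlier results of these data known.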

Additional observations from a re-analysis of the deposited data

Results flagged for a closer look

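Of 54 groups of 5 values tested for a sample far from the others (9 members, left and right CPM and log2 ratios, wild types and inverted mutants), 4 had one, and chance flags about 1 in 20 groups. *Scube2* had 36.8 CPM on the right of the wild type 10_1, far above the other wild types (0.536 to 6.11 CPM). It also had 3.61 CPM on the right of the inverted mutant 10_3, where the other 4 had 0.421 to 0.754 CPM. *Gli3* had 109 CPM on the left of the wild type 22_4, above 78.5 to 85.6 CPM in the other 4, and its log2 ratio there was -0.611 against 0.0497 to 0.199 in the others. The causes were not tested. No member had a difference of asymmetry between groups that passed the threshold with all embryos.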

How the results depend on the processing

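Tests of side are paired within embryos. In the inverted mutants the number of members called, 1 of 9 as reported, was 3 with DESeq2, 0 without the replicate block, 2 without a filter on low counts, 0 with all groups fitted together and 0 in males alone, and 0 to 1 when each embryo was left out. For the difference of asymmetry between inverted mutants and wild types it was 0 to 2 when each embryo was left out, with 2 without 22_4. The counts of all other comparisons kept within 1.5 times their value under every alternative run. The block changed no call but that of *Scube2*. Log2 values of members that did not pass as reported turned their sign in some settings, and turns by under 1 SE are not listed. Without the block *Scube2* in wild types was 0.99. In males alone, *Gli2* was 0.0303 in rightward mutants and -0.0396 for the difference of inverted and rightward looping, and *Shh* was 0.30 in inverted mutants, 0.70 for the difference from rightward looping and 0.71 for that from wild types. With each embryo left out, right over left in wild types ranged from -0.22 to 0.00697 for *Smo*, from -0.15 to 0.0901 for *Hhip* and from -0.0897 to 0.11 for *Gli3*, and *Hhip* in inverted mutants from -0.11 to 0.18. The difference of asymmetry ranged from -0.25 to 0.0285 for *Hhip* (inverted and rightward looping), and between rightward looping and wild types from -0.34 to 0.10 for *Boc* and from -0.0796 to 0.11 for *Gli3*. The level on the right, rightward looping minus wild types, ranged from -2.004 to 0.24 for *Scube2* and from -0.38 to 0.0426 for *Boc*. The causes were not tested. Groups of 5 embryos and the low counts of *Scube2* limit the precision.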
